A study of Mus musculus with 8 samples.

Results

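The collagen genes are the 42 protein-coding genes of the deposited table whose names consist of Col, a number, the letter a and a number, out of 37417 genes in all. Col4a3bp, which encodes a ceramide transfer protein despite its name, does not match this rule, and Col26a1, which the table lists under an older name, falls outside it too. The type VI gene Col6a5 is not among the 42 either. The genes were measured by RNA sequencing of epididymal white fat, the fat pad beside the epididymis, from 4 wild-type and 4 Atg3 knockout male mice of the C57Bl/6 strain on chow. Knockout mice were Adiponectin-Cre ERT2-Atg3 flox/flox, which pairs floxed Atg3 alleles with a tamoxifen-inducible recombinase, and mice of both genotypes received tamoxifen, per the labels. The adiponectin promoter is active in adipocytes, so fibroblasts, vessels and other cells of the pad keep the gene. The labels name the controls only as WT and give no age. The series title places the deletion of autophagy in adipocytes after development, and the comparison here asks whether collagen transcripts differed between the genotypes.

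Collagens are secreted or membrane-bound proteins whose alpha chains wind into a rope-like helix of Gly-X-Y repeats. Fibrillar types build the fibers of connective tissue, type IV forms the sheet of the basement membrane that surrounds every adipocyte and vessel, and type VI forms beaded filaments between them. In fat, collagens are made by fibroblasts and preadipocytes, by endothelial and mural cells and by adipocytes themselves, and fibrosis of the pad is a known feature of obesity. In whole tissue, fewer cells of a type and less RNA per cell cannot be told apart.

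Libraries held 10986375 to 21688464 counted reads. Atg3 was 50.2 ± 4.34 CPM (counts scaled to the library total with TMM factors) in wild-type fat and 30.3 ± 1.84 CPM in fat of the knockout (SD, n = 4), with no overlap, so each library sat on the side of its label. By edgeR's quasi-likelihood test the log2 fold change of Atg3 was -0.73 (SE 0.086, adjusted p = 0.0168), and its call was lost without wild-type library 1 or 4 or knockout library 2 (adjusted p = 0.0543, 0.0705 and 0.0745). Adipoq, which defines the adipocyte, was present at 2155 to 3995 CPM in all 8 libraries. Knockout libraries 2 and 3 stood apart. A list of 21 duct epithelium markers, such as Epcam, Krt8 and Foxj1, summed to 711 and 729.9 CPM there, against 65.6 and 78.9 CPM in knockout libraries 1 and 4 and 19.8 to 46.1 CPM in wild-type libraries. Of these 21 markers 13 were higher in every knockout library than in any wild-type library. Of the 12 that were tested 8 did not overlap, all higher in knockout fat, where 4.32% of all tested genes were. By edgeR 0 of the 12 were called, where 0.405% of all tested genes were. At an unadjusted p under 0.05, 11 of the 12 were higher in knockout fat, where 8.52% of all tested genes were. The list was chosen with earlier results of these data known, and the 12 are those that passed the filter on low counts. These counts are therefore a description and not independent support. Of the 21 none was at 0 in all libraries (0 of 21).

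Collagen transcripts took 0.793 ± 0.14% of all counts in wild-type and 0.688 ± 0.159% in knockout fat (SD, n = 4), with ranges of 0.606 to 0.926% and 0.536 to 0.911% that overlapped. On the FPKM scale, which divides by gene length and lets genes be compared, 3 classes held most of it. Basement membrane chains made up 35.2 ± 1.45% of the summed collagen FPKM in wild-type and 33 ± 2.91% in knockout fat, fibrillar chains 32.6 ± 3.05% and 35.3 ± 2.11%, and type VI chains 16.7 ± 0.984% and 17.3 ± 1.3% (SD, n = 4). The multiplexins Col15a1 and Col18a1 added 12.6 ± 2.96% and 10.6 ± 1.82%. All other classes together stayed small, and the 10 genes with the highest mean FPKM carried 88.2 to 92.3% of collagen FPKM in each library. The order of the first pair of classes differed between libraries. Fibrillar chains led in wild-type library 1 (36.6 against 33.7%) and basement membrane chains in knockout library 4 (35.6 against 33.8%). In the wild-type mean the order also depends on the gene length used. With the length of the longest coding transcript in GENCODE M21, in place of the exonic length of the file, fibrillar chains took 37.6% in wild-type and 40.4% in knockout fat and basement membrane chains 28.9% and 26.9%.

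**Figure D1:**
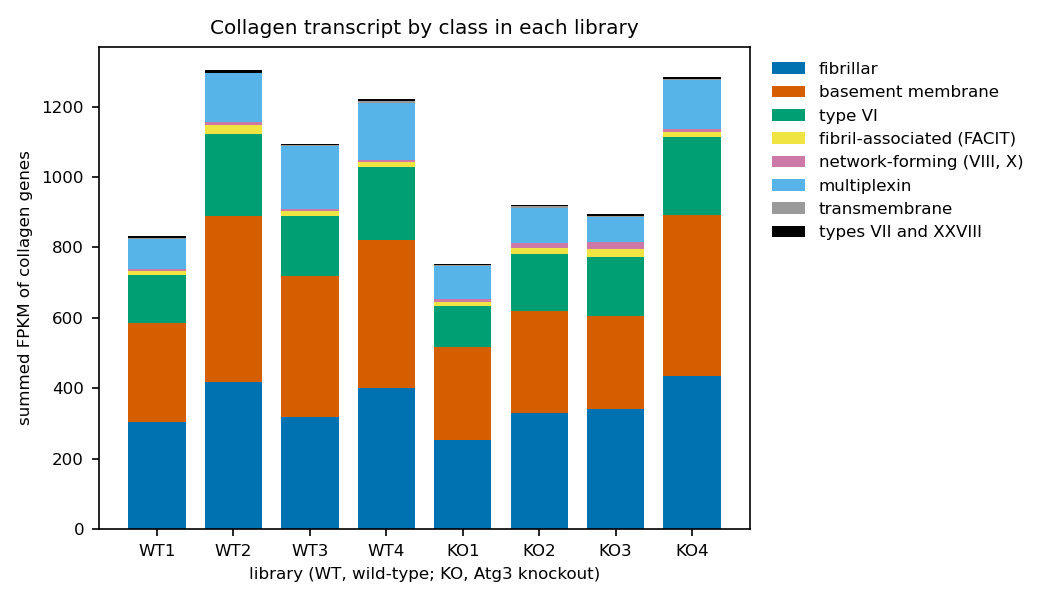
Summed FPKM of the 42 collagen genes in each of the 8 libraries, stacked by class. Totals ran from 832 (library 1) to 1304 (library 2) in wild-type and from 751 (library 1) to 1284 (library 4) in knockout fat.

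No collagen gene passed the test between the genotypes. Of the 42 genes 33 passed the filter on low counts, and 0 of them reached an adjusted p of 0.05 with edgeR's quasi-likelihood test, where 0.405% of all 14800 tested genes did. An unadjusted p under 0.05 was reached by 4 collagens, or 12.1%, against 16.2% of all tested genes, so the share of collagens was not above that of genes at large in this fit. Of these 4 genes 3 were higher in knockout fat and 1 was lower, where 8.52% and 7.66% of all genes were. The comparison turned with library size scaling of the same 8 libraries, where 6 collagens had an unadjusted p under 0.05 (18.2%, against 15.4% of all genes). In none of the 33 did the 4 knockout libraries lie wholly above or below the 4 wild-type libraries (0 genes, against 8.86% of all tested genes, 4.32% higher and 4.54% lower in knockout fat). The log2 fold change was negative for 21 collagens (63.6%, against 52.4% of all tested genes), with a median of -0.10 beside -0.01 over all genes. DESeq2 called 2 collagens, Col4a3 and Col6a6, where it called 5.47% of all tested genes, and edgeR called Col4a3 alone when knockout library 1 was left out (1 gene, where 1.92% of all genes were called). Without knockout libraries 2 and 3 edgeR called 0 collagens, where it called 0.0197% of all tested genes, and 1 collagen had an unadjusted p under 0.05, where 8.52% of all genes did. With limma-voom 0 were called and 1 had an unadjusted p under 0.05 (3.03%, against 14.2% of all genes). The number of collagens with an unadjusted p under 0.05 in edgeR was 11 without knockout library 4 (33.3%, against 16.8% of all genes in that fit), 7 without wild-type library 1 (21.2%, against 15.8%) and 3 to 6 without any other single library (9.09 to 18.2%, against 10.5 to 16.3%). Without knockout library 4 the median log2 fold change of the collagens was -0.21, and 0 were called.

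For 18 of the 33 tested genes the 95% interval of the log2 fold change lay within 2-fold in either direction. Col1a2 had the interval from -0.46 to 0.34, Col3a1 from -0.59 to 0.29 and Col1a1 from -0.30 to 0.80. Intervals of Col4a1 (-0.91 to 0.22) and Col4a2 (-0.88 to 0.32) were of similar width, and that of Col5a3 (-1.09 to 0.69) was wider. Differences of any size inside these intervals were compatible with the data, before adjustment for the number of genes tested.

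**Figure D2:**
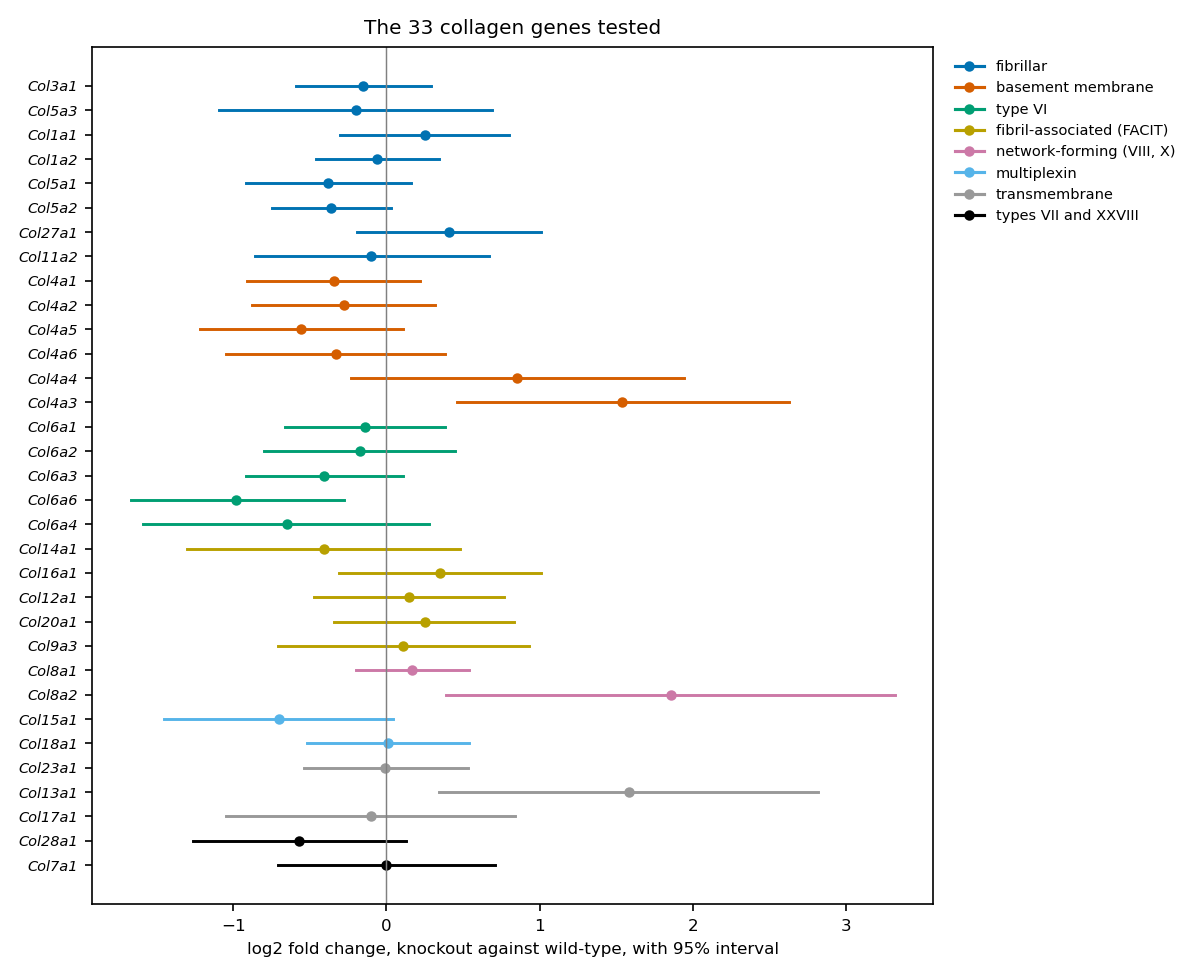
Log2 fold change (points) with its 95% interval (lines) for the 33 tested collagen genes, knockout against wild-type, from edgeR's quasi-likelihood test, colored by class. Most intervals include 0; those of Col4a3, Col8a2 and Col13a1 lie above it and that of Col6a6 below it, before adjustment for the number of genes tested.

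Col4a3, Col8a2, Col13a1 and Col6a6 were the 4 collagens with an unadjusted p under 0.05; by edgeR's quasi-likelihood test their adjusted p was 0.174, 0.209, 0.207 and 0.176. The sequence before their start sites is shown because they had the lowest p among the collagens. Col4a3 and Col4a4 lie head to head on chromosome 1 and are separated by 71 bases, given here on the strand of Col4a4 (chr1:82586850-82586920, minus). For Col8a2 (chr4:126286544-126286792, plus), Col13a1 (chr10:61979109-61979358, minus) and Col6a6 (chr9:105828161-105828335, minus) the bases are those of the RefSeq promoter windows of build GRCm38.p6 that precede the first exon in GENCODE M21. Capitals mark matches, on either strand, to a GC box (GGGCGG) or a TATA box (TATAAA).
Col4a4-Col4a3: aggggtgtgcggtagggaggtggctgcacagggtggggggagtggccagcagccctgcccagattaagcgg
Col8a2: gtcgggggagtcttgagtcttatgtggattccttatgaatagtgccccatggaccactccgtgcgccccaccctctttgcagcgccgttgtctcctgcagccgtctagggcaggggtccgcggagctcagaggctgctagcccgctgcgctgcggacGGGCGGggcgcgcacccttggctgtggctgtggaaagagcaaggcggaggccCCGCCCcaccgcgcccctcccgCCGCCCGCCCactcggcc
Col13a1: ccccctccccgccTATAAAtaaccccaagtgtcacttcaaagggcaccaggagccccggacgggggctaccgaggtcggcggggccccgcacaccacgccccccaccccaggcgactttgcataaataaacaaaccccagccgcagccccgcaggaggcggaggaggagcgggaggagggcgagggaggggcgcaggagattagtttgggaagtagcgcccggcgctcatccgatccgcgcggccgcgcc
Col6a6: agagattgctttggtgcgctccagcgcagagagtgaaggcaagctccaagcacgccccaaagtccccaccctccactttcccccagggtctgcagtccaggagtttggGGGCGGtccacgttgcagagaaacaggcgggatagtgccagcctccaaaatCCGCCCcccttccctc

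Col8a2 holds 4 GC boxes, of which the pair nearest the gene overlap each other, and Col6a6 holds 2. Col13a1 holds a TATA box that starts 237 bases before the start site, and the 71 bases between Col4a3 and Col4a4 hold none of the motifs searched. These were the GC box, the TATA box, the CCAAT box (CCAAT) and a forkhead motif (GTAAACA). Over the 250 bases before the start, RefSeq windows were found for 34 of the 42 collagen genes. A GC box was present in 20 of the 34 (58.8%, against 32.7% of 32851 windows of all genes), a CCAAT box in 12 (35.3%, against 33.8%), a TATA box in 5 (14.7%, against 12.4%) and the forkhead motif in 1 (2.94%, against 3.17%). Over 71 bases, a GC box was present in 20.7% of all windows. These counts are matches of letters and were not tested.

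Col4a3 and Col4a4 encode chains of the type IV collagen that is best known from the glomerulus of the kidney. Col4a3 held 2.06, 3.23, 2.62 and 3.27 CPM in wild-type libraries 1 to 4 and 2.31, 10.2, 14.4 and 5.96 CPM in knockout libraries 1 to 4. Knockout libraries 2 to 4 were above all wild-type libraries and library 1 was among them, with a log2 fold change of 1.54 (SE 0.48). Its adjusted p was 0.0343 without knockout library 1 and 0.0346 with DESeq2. Col4a4 held 5.07, 4.76, 3.45 and 6.74 CPM in wild-type and 2.39, 11.3, 15.5 and 7.11 CPM in knockout libraries, with a log2 fold change of 0.85 (SE 0.479, edgeR adjusted p = 0.421). Library 1 was the lowest of all 8 for Col4a4. Per length, the ratio of Col4a3 to Col4a4 was 0.34, 0.567, 0.636 and 0.405 in wild-type and 0.808, 0.752, 0.773 and 0.699 in knockout libraries. The ratios of the genotypes did not overlap, but rest on 161 wild-type and 502 knockout reads of Col4a3, and were not tested. The unnamed gene model ENSMUSG00000085879 lies over Col4a3 on the opposite strand, and since no source says whether strand was used in counting, that count is uncertain.

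Col8a2 encodes a chain of type VIII collagen, a short-chain collagen of vessel walls and of the corneal endothelium. It held 6.02, 12.1, 2.3 and 9.76 CPM in wild-type libraries and 13.4, 40.9, 49.0 and 7.54 CPM in knockout libraries (log2 fold change 1.86, SE 0.649). Knockout libraries 2 and 3 were over 3 times as high as any wild-type library, library 1 stood just above them and library 4 stood among them. Its partner chain Col8a1 showed no such pattern, at 23.3, 27.9, 16.6 and 25.6 CPM in wild-type and 22.2, 25.8, 29.9 and 27.3 CPM in knockout libraries (log2 fold change 0.17, edgeR adjusted p = 0.65). Col13a1, a transmembrane collagen of cell adhesion sites, was near 1 CPM, with 0.516, 0.588, 0.492 and 1.18 CPM in wild-type and 0.923, 3.41, 3.27 and 0.913 CPM in knockout libraries. It had 40 reads in wild-type and 125 in knockout libraries (log2 fold change 1.58, SE 0.548).

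Knockout libraries 2 and 3 were the highest of all 8 for Col4a3, Col4a4, Col8a2 and Col13a1, the libraries whose duct marker sums were 711 and 729.9 CPM. Without these 2 libraries the log2 fold change was 0.58 for Col4a3, -0.05 for Col4a4, 0.47 for Col8a2 and 0.39 for Col13a1, with edgeR adjusted p between 0.718 and 0.986. The part of duct epithelium in these differences was not tested. Mesothelial markers, a list of 9 genes that shares keratins with the duct list, summed to 211, 292, 452 and 128 CPM in knockout and 70.5 to 265 CPM in wild-type libraries.

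**Figure D3:**
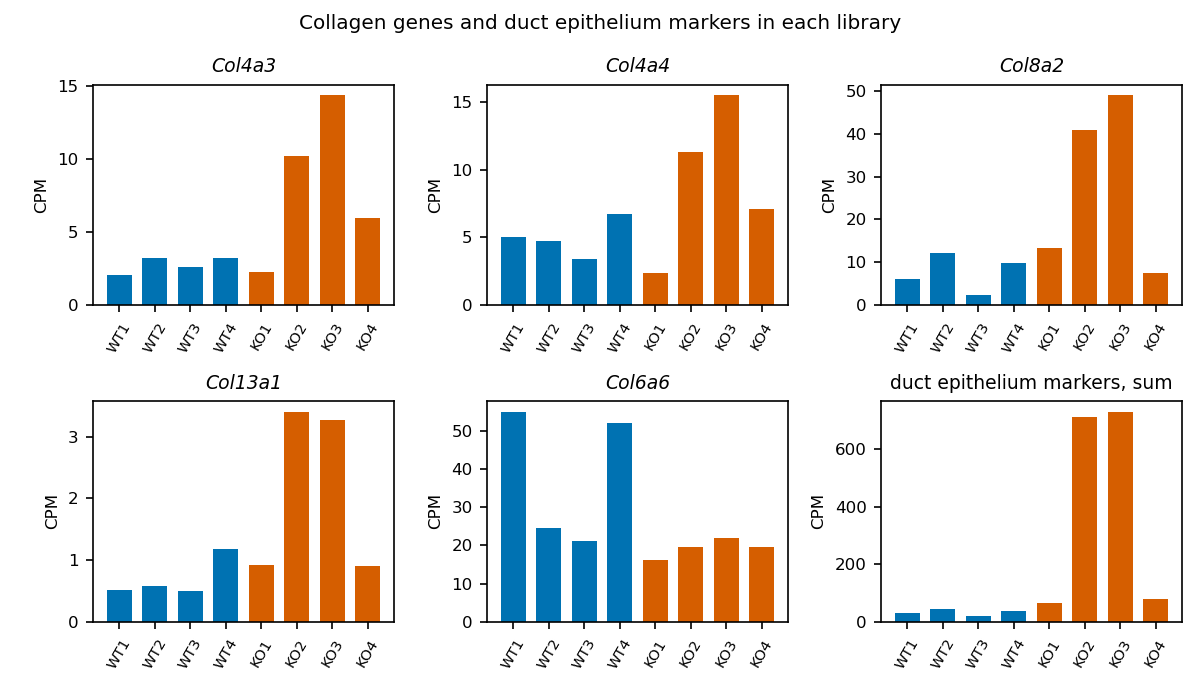
CPM of Col4a3, Col4a4, Col8a2, Col13a1 and Col6a6 and the summed CPM of 21 duct epithelium markers in each library (wild-type in blue, knockout in orange; each bar is 1 library). For the first 4 genes the bars of knockout libraries 2 and 3 are the highest, as for the markers; for Col6a6 those of wild-type libraries 1 and 4 are.

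Among fibrillar collagens, Col1a1 and Col1a2 encode the chains of type I collagen, the main fiber of connective tissue, and Col3a1 that of type III, which joins it in fibrils. Col1a1 held 330.1, 455, 285 and 449 CPM in wild-type and 270.5, 438, 594 and 499 CPM in knockout libraries, and the groups overlapped (log2 fold change 0.25, SE 0.243, edgeR adjusted p = 0.665). Col1a2 held 686, 848, 618 and 816 CPM in wild-type and 515, 675, 894 and 758 CPM in knockout libraries (log2 fold change -0.06, adjusted p = 0.896). Both chains had their lowest value in knockout library 1 and their highest in knockout library 3. Col3a1 held 928, 1154, 837 and 988 CPM in wild-type and 636, 874, 789 and 1219.8 CPM in knockout libraries (log2 fold change -0.15, adjusted p = 0.751), with library 4 and not library 3 highest.

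Type V chains start fibrils and set their width. Col5a1 had 30.3 ± 6.76 FPKM in wild-type and 23.4 ± 6.49 FPKM in knockout fat, Col5a2 17.0 ± 2.93 and 13.4 ± 2.14 FPKM, and Col5a3 78.2 ± 27.2 and 68.7 ± 31.5 FPKM (SD, n = 4). Col5a3 thus exceeded Col5a1 in every library, by a ratio of 1.78 to 3.38. It was also the most variable of the abundant fibrillar genes, at 245, 588, 658 and 678 CPM in wild-type and 392, 464, 240.2 and 793 CPM in knockout libraries (log2 fold change -0.20, edgeR adjusted p = 0.846). Col5a2 held 122, 198, 181 and 159 CPM in wild-type and 119, 116, 113 and 166 CPM in knockout libraries. Libraries 1 to 3 of the knockout lay below every wild-type library and library 4 lay inside their range (log2 fold change -0.36, SE 0.173, adjusted p = 0.346). Col5a1 held 172, 294, 261 and 314 CPM in wild-type and 173, 177, 154 and 292 CPM in knockout libraries, where wild-type library 1 sat with knockout libraries 1 to 3 and the groups overlapped (log2 fold change -0.38, adjusted p = 0.473). Of the other fibrillar genes Col27a1 and Col11a2 were tested, at group means under 1 FPKM. The cartilage collagen Col2a1 had 17 reads, Col11a1 33 and Col24a1 75 over all 8 libraries. These last genes did not pass the filter on low counts.

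**Figure D4:**
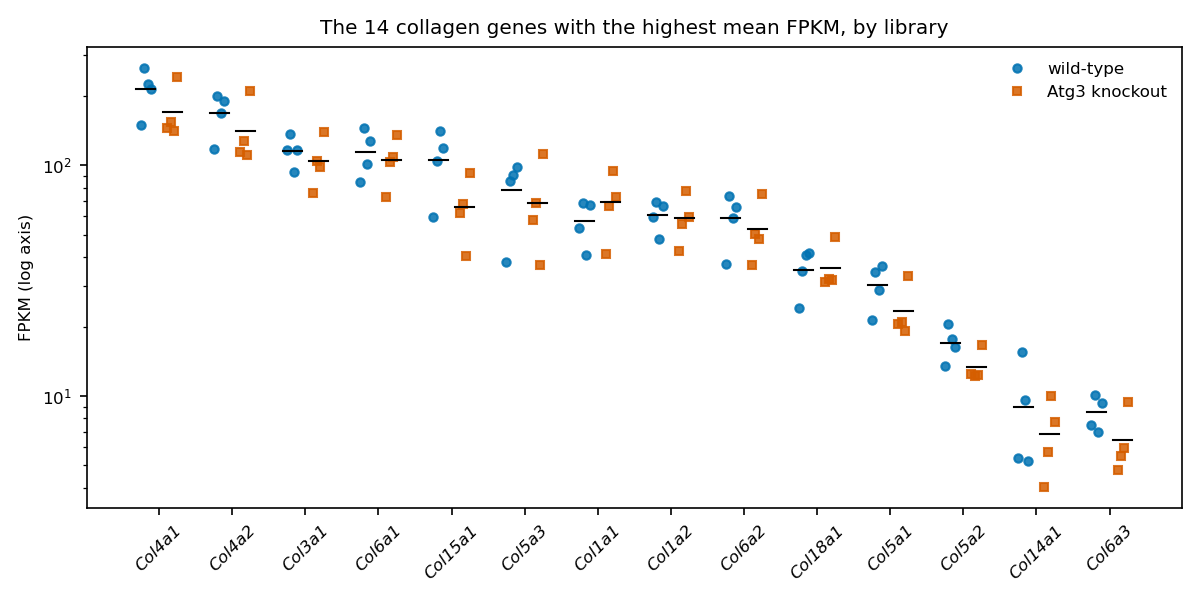
FPKM (log axis) of the 14 collagen genes with the highest mean, in each wild-type (circles) and knockout (squares) library, with group means as lines. With the exonic length of the file Col4a1 and Col4a2 are highest, at means of 214 and 169 FPKM in wild-type fat, and the groups overlap for each gene.

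The basement membrane chains Col4a1 and Col4a2, which form the type IV network present in nearly all tissues, were the collagens with the highest mean FPKM in the file. The rank of Col4a2 over Col3a1 depends on the gene length used. For Col3a1 the exonic length of the file is 1.51 times that of the longest coding transcript, and for Col4a2 1.03 times. Col4a1 had 214 ± 47.5 FPKM in wild-type and 169.9 ± 47.3 FPKM in knockout fat, and Col4a2 169 ± 36.2 and 141 ± 46.7 FPKM (SD, n = 4). In CPM, Col4a1 held 965, 1813, 1642 and 1486 in wild-type and 984, 1046, 914 and 1708 in knockout libraries (log2 fold change -0.34, SE 0.248, edgeR adjusted p = 0.54). Col4a2 held 737, 1328, 1198 and 1267 CPM in wild-type and 753, 841, 701 and 1448 CPM in knockout libraries (log2 fold change -0.28, adjusted p = 0.655). Wild-type library 1 and knockout libraries 1 to 3 formed the low libraries for both genes. Without knockout libraries 2 and 3 the log2 fold changes were -0.12 for Col4a1 and -0.03 for Col4a2. The genes face away from each other on chromosome 8, from 11198423 to 11312826 (Col4a1, minus strand) and from 11312805 to 11449287 (Col4a2, plus strand), and the gene models overlap by 22 bases. Their ratio per length stayed between 1.14 and 1.33 over all 8 libraries, while each gene varied about 2-fold (1.98-fold for Col4a1, 2.07-fold for Col4a2).

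Col4a5 and Col4a6, the X-linked type IV pair, also lie head to head, 1308 bases apart. Col4a5 held 51.7, 43.0, 23.7 and 63.4 CPM in wild-type and 23.1, 27.7, 44.1 and 28.8 CPM in knockout libraries (log2 fold change -0.56, SE 0.294, edgeR adjusted p = 0.394). Col4a6 held 26.1, 20, 10.7 and 28.3 CPM in wild-type and 13.4, 16.6, 25.3 and 12.6 CPM in knockout libraries (log2 fold change -0.33, adjusted p = 0.653). Wild-type library 3, which was high for Col4a1 and Col4a2, was the lowest wild-type library for this pair, and knockout library 3 was the highest knockout library, where it was the lowest for Col4a1 and Col4a2. Of the 6 type IV genes 4 had negative and 2 had positive log2 fold changes, and 0 were called. Over all tested genes 52.4% had a negative log2 fold change and 0.405% were called.

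Type VI collagen forms beaded filaments around cells, and a fragment of its alpha-3 chain is known as the adipokine endotrophin. Col6a1 held 351, 642, 473 and 565 CPM in wild-type and 317, 452, 459 and 616 CPM in knockout libraries (log2 fold change -0.14, edgeR adjusted p = 0.81), and Col6a2 294, 617, 525 and 555 CPM against 307, 420, 383 and 655 CPM (log2 fold change -0.17, adjusted p = 0.801). Col6a3, the endotrophin gene, held 68.9, 99.2, 72.6 and 92.5 CPM in wild-type and 46.4, 53.6, 55.4 and 95.7 CPM in knockout libraries. Knockout libraries 1 to 3 lay below all wild-type libraries and library 4 among them (log2 fold change -0.41, SE 0.227, adjusted p = 0.42, and 0.0788 without library 4). Per length, Col6a3 was the scarcest of the 3, at 8.49 ± 1.5 FPKM in wild-type against 114 ± 26.9 for Col6a1 and 58.9 ± 15.6 for Col6a2 (SD, n = 4). Here too the length matters: the exonic length of Col6a2 in the file is 2.11 times that of its longest coding transcript, and with that transcript the ratio of Col6a1 to Col6a2 was 1.0 ± 0.117 in wild-type, where the deposited FPKM gave 1.97 ± 0.231 (SD, n = 4).

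Col6a6 encodes a further type VI chain that can take the place of alpha-3. It held 55.1, 24.5, 21.2 and 52.1 CPM in wild-type and 16.2, 19.6, 22 and 19.7 CPM in knockout libraries (log2 fold change -0.98, SE 0.308). Wild-type libraries 1 and 4 were high, while libraries 2 and 3 lay within or just above the knockout range of 16.2 to 22 CPM. DESeq2 gave Col6a6 an adjusted p of 0.0388, and edgeR gave 0.566 without knockout libraries 2 and 3, where the log2 fold change was -1.07. Col6a4, a further chain of this kind, was scarce, at 1.5 ± 0.766 CPM in wild-type libraries and 0.942 ± 0.305 CPM in those of the knockout (SD, n = 4). All 5 tested type VI genes had negative log2 fold changes, from -0.98 to -0.14, and 0 of them were called. Of all tested genes 52.4% had a negative log2 fold change and 0.405% were called. Without knockout library 1 the value of Col6a1 was 0.00.

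Col15a1 and Col18a1 encode multiplexins, collagens with many interruptions in the helix that sit at basement membranes, and Col18a1 is the source of endostatin. Col15a1 held 357, 665, 952 and 764 CPM in wild-type and 393, 432, 244 and 612 CPM in knockout libraries, which overlapped through wild-type library 1 (log2 fold change -0.70, SE 0.33, edgeR adjusted p = 0.336). Col18a1 held 159.6, 245, 306 and 297 CPM in wild-type and 218, 225, 213 and 357 CPM in knockout libraries (log2 fold change 0.01, adjusted p = 0.989). The ratio of Col15a1 to Col18a1 in FPKM was 2.47, 3.0, 3.44 and 2.85 in wild-type and 1.99, 2.12, 1.27 and 1.89 in knockout libraries, so each knockout library lay below each wild-type library. This was 1 of 11 ratios computed, and none was tested. The gene Slc19a1 overlaps Col18a1 and the antisense gene Gm12426 overlaps Col15a1, both on the opposite strand, so these counts are uncertain.

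Fibril-associated collagens, which sit on the surface of fibrils, were a small class, at 1.52 ± 0.329% of collagen FPKM in wild-type and 1.81 ± 0.652% in knockout fat (SD, n = 4). Col14a1 held 35.5, 109, 72.1 and 37.2 CPM in wild-type and 28.1, 40.1, 66.9 and 56.6 CPM in knockout libraries (log2 fold change -0.41, edgeR adjusted p = 0.654). Col16a1 held 25.9, 48.4, 35.0 and 42.8 CPM in wild-type and 30.3, 57.4, 71.9 and 34.4 CPM in knockout libraries (log2 fold change 0.35, adjusted p = 0.606), and without knockout libraries 2 and 3, its highest, the value was -0.22. Col12a1 held 19.5, 17.2, 12 and 17.7 CPM in wild-type and 12.8, 11.9, 26.6 and 22.3 CPM in knockout libraries (log2 fold change 0.15, edgeR adjusted p = 0.834), and -0.07 without knockout library 3, its highest. Col20a1 and Col9a3 were tested at low levels and did not pass, and Col22a1 (42 reads), Col9a1 (10), Col9a2 (4) and Col19a1 (3) did not pass the filter on low counts. Col19a1 had 0 of 62114369 reads in knockout libraries, which allows up to 0.0483 CPM by counting error alone.

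The remaining collagens were scarce. Col28a1, known from peripheral nerve, held 18.7, 35.7, 11.7 and 30.6 CPM in wild-type and 13.9, 15.3, 16.4 and 19.8 CPM in knockout libraries (log2 fold change -0.57, edgeR adjusted p = 0.406). Its wild-type libraries spread wider than its knockout libraries (SD 10.9 and 2.55 CPM). Col23a1, a transmembrane collagen, held 16.9, 11.9, 12.3 and 23.2 CPM in wild-type and 13, 20.5, 16.2 and 14.4 CPM in knockout libraries. Col7a1, the anchoring fibril collagen of skin, held 3.01, 2.29, 1.64 and 3.01 CPM in wild-type and 3.31, 1.63, 3.2 and 1.83 CPM in knockout libraries. Col17a1, a hemidesmosome collagen of epithelia, held 0.774, 1.18, 2.05 and 1.83 CPM in wild-type and 1.39, 1.26, 0.613 and 2.11 CPM in knockout libraries. The genotypes overlapped for each, and the log2 fold changes were -0.01 for Col23a1, -0.10 for Col17a1 and 0.00 for Col7a1, with edgeR adjusted p of 0.991, 0.929 and 0.996. The sign for Col23a1 and Col7a1 turned with the scaling. Col25a1 had 29 reads over all libraries. Col10a1, a marker of growth plate cartilage, had 1 read in knockout and 0 of 56617086 reads in wild-type libraries. The latter allows up to 0.053 CPM by counting error alone. The gene Nt5dc1 lies over Col10a1 on the opposite strand, so the count of Col10a1 is uncertain.

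The abundant collagens varied between libraries of 1 genotype in a shared way. Among the 12 genes with the highest FPKM, wild-type library 1 was the lowest wild-type library for 9 and wild-type library 2 the highest for 8, and knockout library 4 was the highest knockout library for 10. Type I collagen was the exception: Col1a1 and Col1a2 were highest in knockout library 3, where 7 of the 12 genes were lowest, among them Col4a1, Col5a3, Col15a1 and Col18a1. The ratio of Col4a1 to Col1a1 in FPKM was 2.82, 3.83, 5.54 and 3.19 in wild-type and 3.5, 2.3, 1.48 and 3.3 in knockout libraries. Adipocyte markers (8 genes) summed to 33061 CPM in wild-type library 3, the highest, and 22350.3 CPM in knockout library 3, and fibroblast markers (11 genes) to 13719 and 11536 CPM. The part of cell makeup in these ratios was not tested. Wild-type libraries 1, 3, 4 and 2 held 10986375, 13021878, 15480022 and 17128811 counted reads. Their collagen shares of counts rose in that order (0.606, 0.773, 0.868 and 0.926%). Knockout library 1 had the fewest reads and lowest share of its group (12952190, 0.536%), library 4 the most and highest (21688464, 0.911%). Knockout libraries 2 and 3 broke this order (13459675 and 14014040, 0.656 and 0.648%). The part of read depth was not tested.

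Genes that process collagen were read from 5 lists. Of 86 genes tested 2 passed over all genes with edgeR's quasi-likelihood test, and 13 (15.1%) had an unadjusted p under 0.05, where 0.405% and 16.2% of all tested genes did. Over all genes 0.277% rose and 0.128% fell. Ctage5, which helps load collagen into transport vesicles at the endoplasmic reticulum, rose from 119 ± 5.02 to 172 ± 17.6 CPM (SD, n = 4). It was higher in 4 of 4 knockout libraries than in any wild-type library (log2 fold change 0.53, SE 0.0883, adjusted p = 0.0496). Its partner MIA3, on the same list, had a log2 fold change of -0.16 (adjusted p = 0.282). Of 22 tested genes of chain modification, folding and export, Ctage5 was the 1 that rose, 0 fell, and the median log2 fold change was 0.04. Creb3l1, a transcription factor that activates collagen secretion genes, averaged 17.8 ± 2.91 CPM in wild-type fat and 25.9 ± 3.85 CPM in fat of the knockout (SD, n = 4; log2 fold change 0.54, edgeR adjusted p = 0.145), and Glt25d1, a collagen galactosyltransferase, a log2 fold change of -0.20 (adjusted p = 0.18).

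Tgfbr3, the betaglycan co-receptor that presents TGF-beta, fell from 237 ± 18.0 to 169.9 ± 7.67 CPM (SD, n = 4), lower in 4 of 4 knockout libraries (log2 fold change -0.48, SE 0.0797, edgeR adjusted p = 0.0496). It was the 1 of 19 tested TGF-beta genes that fell, and 0 rose, with a median of -0.09. Over all tested genes 0.128% fell and 0.277% rose by edgeR, and the genotypes did not overlap in 8.86%. The ligand Tgfb1 averaged 52.5 ± 4.99 CPM in wild-type fat and 65.8 ± 5.4 CPM in fat of the knockout, without overlap (SD, n = 4; log2 fold change 0.33, edgeR adjusted p = 0.144), and Ltbp1, which binds latent TGF-beta, a log2 fold change of -0.32 (adjusted p = 0.2). The calls of Ctage5 and Tgfbr3 were near the threshold. In the fits without wild-type library 1, 2, 3 or 4, or knockout library 2 or 4, 0 of the 86 genes passed. In the fit without knockout library 3 Ctage5 alone passed, and without knockout library 1 Thbs2 passed besides these.

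Other matrix lists held no called gene by edgeR, where 0.405% of all tested genes were called. Among 14 tested genes of extracellular processing and cross-linking, 0 passed, and the median log2 fold change was -0.06. An unadjusted p under 0.05 was reached by 2 of the 14, where 16.2% of all tested genes reached it. Pxdn, the peroxidase that cross-links type IV collagen, held 273, 515, 459.5 and 436 CPM in wild-type and 250.2, 223, 198 and 278 CPM in knockout libraries, which overlapped through wild-type library 1 (log2 fold change -0.83, SE 0.193, edgeR adjusted p = 0.11). Tll1, a tolloid-like procollagen protease, had -0.69 (adjusted p = 0.171) and Adamts2, an N-propeptidase, -0.37 (adjusted p = 0.347). Among 18 tested fibril-associated proteins 0 passed, and the median was -0.22. Thbs2, a matricellular protein of collagen fibrils, held 63.4 to 78.0 CPM in wild-type and 28.2 to 50.4 CPM in knockout libraries (log2 fold change -0.83, adjusted p = 0.0818). Fn1 (fibronectin) had -0.51 (adjusted p = 0.308) and Tnxb (tenascin X) -0.48 (adjusted p = 0.311). Among 13 tested collagen receptors 0 passed, with a median of -0.19. Ddr1 held 58.3, 76.6, 91.8 and 95.3 CPM in wild-type and 83.2, 153, 154 and 123 CPM in knockout libraries, of which 2 to 4 lay above every wild-type library. Antxr1 had -0.56 (adjusted p = 0.163), the discoidin receptor Ddr1 0.67 (adjusted p = 0.182) and Mrc1 -0.25 (adjusted p = 0.335). Over the 5 lists the genotypes did not overlap in 7 of 86 genes (8.14%, against 8.86% of all tested genes). DESeq2 called 9 of the 86 genes (10.5%, against 5.47% of all tested genes). Of these Ctage5, Creb3l1, Ddr1 and Tgfb1 were higher and Tgfbr3, Thbs2, Pxdn, Glt25d1 and Antxr1 lower in knockout fat, with DESeq2 adjusted p of 0.000538 for Thbs2, 0.0023 for Pxdn and 0.0292 to 0.0459 for Creb3l1, Ddr1, Tgfb1, Glt25d1 and Antxr1.

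Markers of the cells that make collagen were read beside these values. These lists too were chosen with earlier results of these data known. Adipocyte markers summed to 22917 to 33061 CPM in wild-type and 22291 to 28430.1 CPM in knockout libraries. Of these 8 genes 7 had a negative log2 fold change (median -0.29), where 52.4% of all tested genes did. By edgeR 0 were called and 2 were lower at an unadjusted p under 0.05, where 0.405% and 7.66% of all tested genes were. Endothelial markers (10 genes) summed to 2149.5 to 2361 CPM in wild-type and 1687 to 1944 CPM in knockout libraries, and 6 of the 10 were lower in every knockout library than in any wild-type library (4.54% of all tested genes were). None of the 10 passed over all genes with edgeR (0 called, where 0.405% of all genes were, and 7 lower at an unadjusted p under 0.05, where 7.66% of all genes were). Fibroblast and preadipocyte markers summed to 12138 to 14385 CPM in wild-type and 11119 to 12113 CPM in knockout libraries, with 0 of 11 called and 1 at an unadjusted p under 0.05 (0.405% and 16.2% of all tested genes). The highest knockout sum lay just under the lowest wild-type sum. Of the 11 genes 10 had a negative log2 fold change (median -0.16), where 52.4% of all tested genes did. The genotypes did not overlap in 0 of the 11, against 8.86% of all tested genes. Smooth muscle and pericyte markers (10 genes) summed to 1768 to 2420.3 and 1805 to 1923 CPM. Macrophage markers (8 genes) summed to 1043 to 1335 and 1026 to 1359 CPM, Schwann cell and nerve markers (8 genes) to 249 to 299 and 222 to 253 CPM, and skeletal muscle markers (6 genes) to 34.2 to 69.1 and 18.9 to 53.0 CPM. Cartilage and bone markers (8 genes, of which Ibsp was at 0 in every library) summed to 6.97 to 17.5 CPM in wild-type libraries. In knockout libraries 1 to 4 they summed to 12.3, 38.8, 32.6 and 10.6 CPM, with libraries 2 and 3 highest. The part of these cells in the collagen values was not tested.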

How the data were processed

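PolyA RNA of 8 epididymal fat samples was sequenced in 50 single-read cycles from stranded libraries, per the labels' protocols. The authors deposited whole-number read counts and FPKM values per gene and library. Novoalign 2.8.1, Picard and build mm10 are named in the submitters' processing notes, with the counting program, its annotation and its use of strand not given in the sources used here. Each of the 158499 deposited FPKM values above 0 equalled count / exonic length / total count within 0.1%. Libraries were grouped by the genotype label. The series' design text gives 4 male mice of each genotype, and each library was taken as 1 mouse.

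Counts were filtered with filterByExpr (minimum count 10), scaled by TMM and tested over all 14800 genes that passed with edgeR's quasi-likelihood test (edgeR 4.0.16, limma 3.58.1, R 4.3.3), with Benjamini-Hochberg adjustment and a threshold of 0.05. DESeq2 1.42.0, limma-voom, other scalings and filters, a replicate block and left-out libraries were alternatives. The scripts were tested on simulated data. The collagen genes, classes, pathway lists and marker lists were chosen with earlier results of these data known. Values in every library are given for the 3 genes of each class with the highest FPKM, the 2 with the lowest p, and partner chains. From each pathway list the called genes and the 3 with the lowest p are named, most with summary values only. Promoter sequences come from RefSeq (GRCm38.p6), trimmed of exons in GENCODE M21.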

Additional observations from a re-analysis of the deposited data

Results flagged for a closer look

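In groups of 4 libraries, a value was listed here when its gap to the nearest other library, over the whole range of the group, passed Dixon's limit. Of 57 groups of collagen values 6 did, and chance flags about 1 in 20. In knockout library 4 these were Col4a1 (1708 CPM), Col18a1 (357 CPM), Col5a1 (292 CPM) and Col5a2 (166 CPM), each the highest of its group. In wild-type library 4 Col13a1 was the highest of its group at 1.18 CPM. In knockout library 3 Col10a1 was at 0.0681 CPM, which is 1 read, with 0 in the other knockout libraries.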

How the results depend on the processing

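The number of collagens called was 0 in the edgeR fit and in all alternatives except DESeq2 (2) and the fit without knockout replicate 1 (1), so that leaving out 1 replicate gave 0 to 1. With the replicate number as a block 0 collagens and 0 pathway genes were called, and Atg3 had a log2 fold change of -0.73 (adjusted p = 0.111). Same-numbered libraries share only a number: their deviations correlated at 0.184, -0.106, -0.254 and 0.0577. Without knockout libraries 2 and 3 Atg3 had -0.77 (adjusted p = 0.0989), and without 1 replicate -0.78 to -0.69. Of the pathway genes 2 were called in the edgeR fit, 0 with RLE scaling, no filter, limma-voom or robust edgeR, or without knockout libraries 2 and 3, 1 with upper quartile scaling, 9 with DESeq2 (10.5%, against 5.47% of all genes), and 0 to 3 without 1 replicate.

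With the longest coding transcript as the length, an alternative chosen after seeing the data, the share of collagen FPKM in wild-type and knockout fat was 37.6 and 40.4% for fibrillar, 28.9 and 26.9% for basement membrane and 18.5 and 19.0% for type VI chains. Over 18 alternatives, 34 log2 fold changes of 28 named collagens changed sign, 466 kept sign and side of the threshold and 3 passed it. Without knockout libraries 2 and 3 the values that changed sign among these 28 were Col16a1 -0.22, Col17a1 0.29, Col4a4 -0.05, Col5a3 0.14 and Col7a1 0.04. Col27a1 (-0.07) and Col9a3 (-0.06), outside the 28, changed sign there too. Over the fits without 1 replicate, the values spanned -0.07 to 0.31 for Col12a1, -0.43 to 0.14 for Col17a1, -0.20 to 0.12 for Col18a1, -0.19 to 0.06 for Col1a2, -0.14 to 0.22 for Col23a1, -0.57 to 0.03 for Col5a3, -0.31 to 0.00 for Col6a1 and -0.17 to 0.16 for Col7a1. With RLE scaling and DESeq2 Col23a1 and Col7a1 were at 0.00, and with upper quartile or library size scaling at 0.01. Col23a1 was at 0.02 with limma-voom and with the replicate block. The cause was not tested. With 4 libraries a genotype and 10986375 to 21688464 reads, collagens under 1 CPM rest on few reads, and 9 collagens did not pass the filter. With no filter all 42 were tested and 0 were called.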
